A study of Macaca fascicularis with 38 samples.

Results

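The enzymes that write and remove DNA methylation and histone marks were followed in prefrontal cortical area 46 of cynomolgus macaques (Macaca fascicularis), in RNA-seq of a first and a second biopsy of the same animals. The set was chosen by gene symbol and holds 44 of the 29958 genes in the deposited table, 3 DNA methyltransferases, 3 TET dioxygenases, 10 histone deacetylases of classes I, II and IV, 6 sirtuins, 5 acetyltransferases, 8 lysine methyltransferases and 9 lysine demethylases. The 32 libraries came from 16 animals. In the header of the table, 10 animals are marked as drinkers, 5 in cohort 9 and 5 in cohort 13, and 6 as controls, 3 in each cohort. Drinkers were biopsied before and after a period of voluntary ethanol intake. An ethanol treatment is attached to every sample in the labels, so the header alone separates controls, and in both kinds of animal before and after stand for the first and the second biopsy. No source used here states the animals' age, the interval between biopsies, the intake or what controls drank. The second biopsies of 6 further animals were not analysed here.

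DNA methyltransferases place methyl groups on cytosine, and TET dioxygenases oxidize them as a step towards their removal. Acetyltransferases loosen chromatin by acetylating histone tails, and deacetylases reverse this, the sirtuins with NAD+ as a co-substrate and the others with zinc. Lysine methyltransferases and demethylases set marks of active or silenced chromatin, and most of the demethylases need oxygen, iron and alpha-ketoglutarate. In neurons these enzymes tie activity and metabolism to transcription. Ethanol is oxidized to acetate, which cells can turn into acetyl-CoA, the acetyl donor of the acetyltransferases, and its oxidation draws on NAD+.

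The deposited values are TPM, read counts scaled to transcript length and to the library total, so levels can be set side by side between genes. Whole reads could be recovered from them for every enzyme, and the libraries held between 11.8 and 36.4 M such reads. Cohort 9 was sequenced less deeply (median 14.8 M) than cohort 13 (31.6 M). Neuronal markers (9 genes, among them SNAP25 and SLC17A7) summed to between 2484 and 8792 TPM over all libraries, astrocyte markers to between 1314 and 3660 TPM and oligodendrocyte markers to between 682 and 8852 TPM, so the marker genes of cortex were present in every library. Mitochondrially encoded transcripts took 41.7% ± 9.73 (SD, n = 16) of the TPM in first biopsies and 36.5% ± 5.20 in second ones. Blood markers (4 genes, HBB among them) reached 20970 TPM in the drinkers' first biopsies and at most 808 TPM in their second ones. In the controls they reached 10470 and 8433 TPM. Of the 8 microglia markers, 7 were lower in second biopsies, both with TPM as deposited and after median scaling. These libraries are bulk tissue, in which fewer cells of a type and less RNA per cell cannot be told apart.

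In first biopsies the levels of the enzymes were spread widely. KAT2A, the acetyltransferase of the SAGA and ATAC coactivators, had the highest level at 134 ± 37.3 TPM (SD, n = 16), and the NAD-dependent tubulin and histone deacetylase SIRT2, abundant in myelin, followed at 93.3 ± 30.8 TPM. EHMT2, which places the silencing dimethyl mark on histone H3, stood at 72.4 ± 16.2 TPM and the class IV deacetylase HDAC11 at 67.2 ± 15.0 TPM. At the other end were KDM5A at 1.70 ± 0.785 TPM, EZH2 at 1.27 ± 0.351 TPM, DNMT3B at 0.753 ± 0.302 TPM and TET1 at 0.281 ± 0.133 TPM. Of the 43 pairs of neighbours in this order, 3 kept their order in all 16 first biopsies, TET3 above KDM5A, EZH2 above DNMT3B and DNMT3B above TET1. In 28 pairs the higher gene led in at most 10 of 16 animals, so most neighbours did not differ beyond their spread. Within families the levels were uneven. EZH1 stood at 31.4 ± 7.20 TPM, far above its Polycomb paralog EZH2, and the maintenance methyltransferase DNMT1 at 12.7 ± 3.63 TPM stood above the de novo enzyme DNMT3A at 4.23 ± 1.91 TPM.

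**Figure D1:**
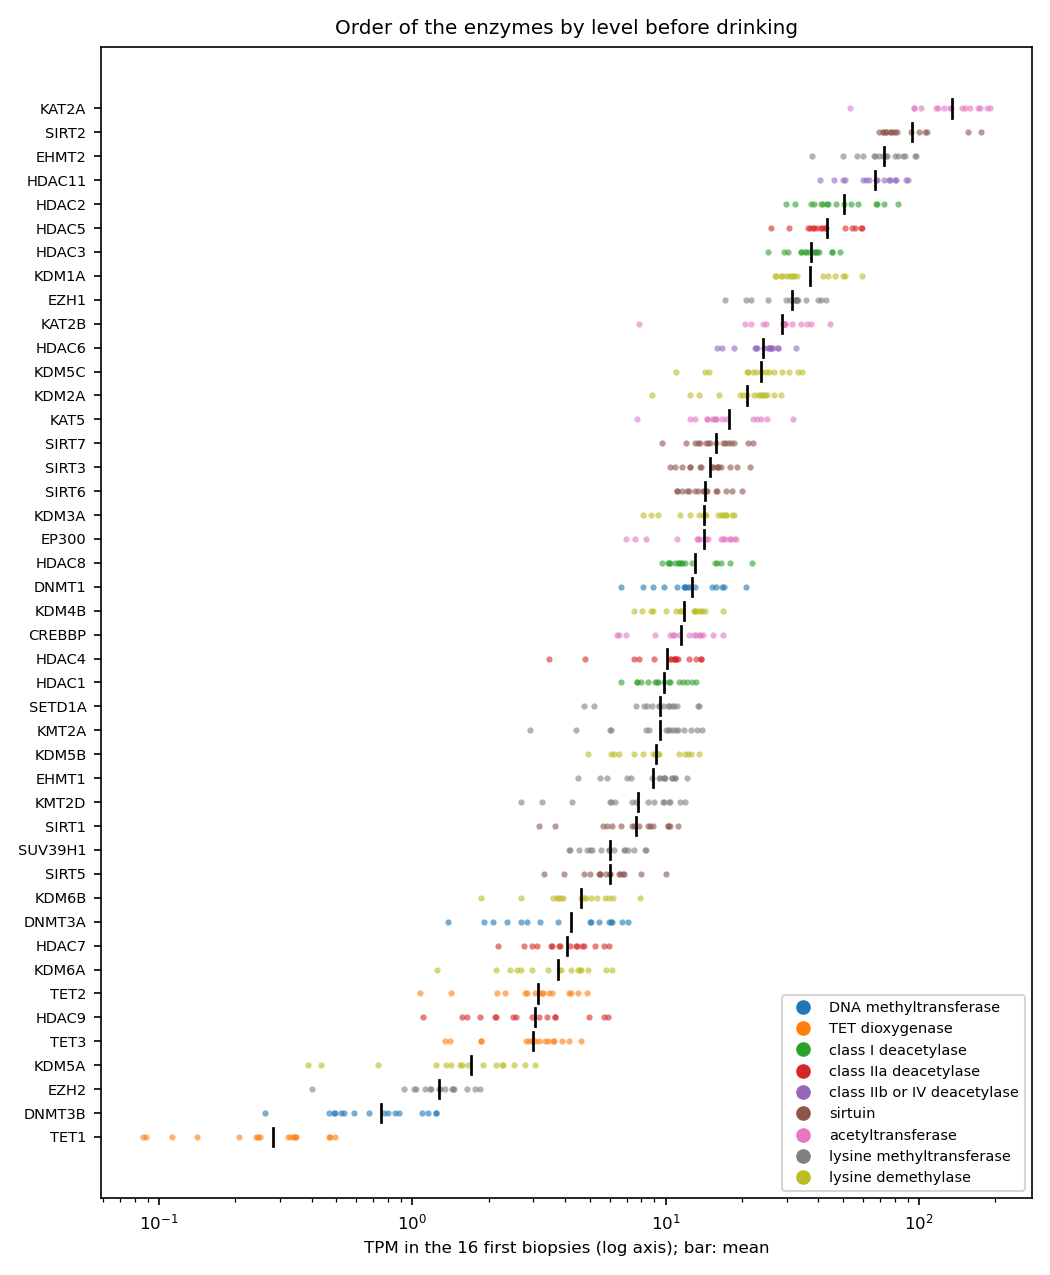
Levels of the 44 enzymes in the 16 first biopsies, with TPM on a log axis and the genes ordered by their mean. Each point is an animal, the bar is the mean and colour gives the enzyme class. KAT2A leads at 134 TPM and TET1 closes the order at 0.281 TPM, and the points of neighbouring genes overlap almost throughout.

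From the first to the second biopsy, 13 of the 42 enzymes with a mean of at least 1 TPM rose over the 16 pairs and none fell (limma on log2(TPM + 1) with the animal as a block, Benjamini-Hochberg adjusted p below 0.05 over 15324 genes). The 13 were TET2, HDAC2, HDAC8, HDAC9, SIRT1, KAT5, KMT2A, EZH1, KDM1A, KDM3A, KDM5A, KDM5B and KDM5C. They make up 31.0% of the tested enzymes, and 32.9% of all genes tested rose and 3.69% fell, so this share is near the background. The median log2 change was 0.16 for the enzymes and 0.17 for all genes. In the drinkers 12 of 42 enzymes rose (28.6%, against 32.7% of all genes) and none fell (3.23% of all genes). In the controls limma called none in either direction, against 0.248% of all genes higher and 0.0522% lower. There 8 of the 42 enzymes had an unadjusted p below 0.05, beside 1961 of the 15324 genes tested. Limma-voom on recovered reads called none of the enzymes either, and its share of all genes is not given.

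**Figure D2:**
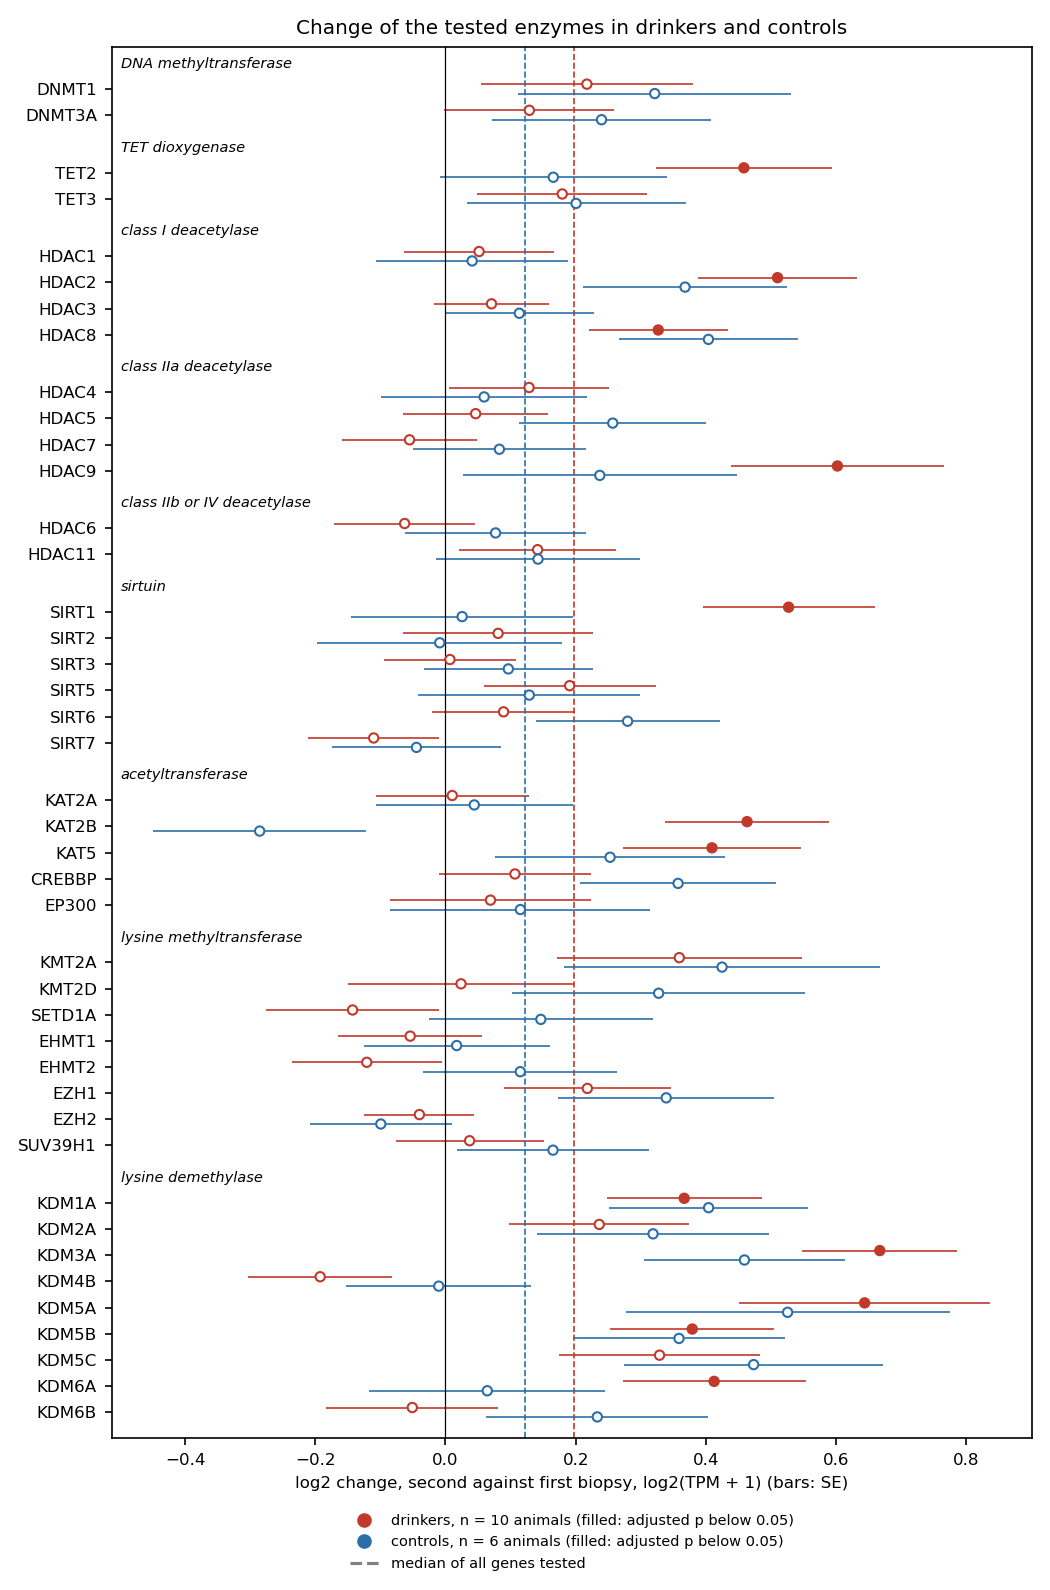
Change of the 42 tested enzymes in log2(TPM + 1), second against first biopsy, in 10 drinkers and 6 controls. Points are fitted changes, bars are SE, filled points have an adjusted p below 0.05 and dashed lines mark the median of all genes tested, 0.20 in drinkers and 0.12 in controls. The 12 filled points are all in drinkers and to the right of zero.

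The rise shared by most genes was taken out by scaling every library to the same median TPM, which leaves changes relative to the typical gene. After it 4 enzymes were higher, HDAC2, HDAC9, KDM3A and KDM5A, and 5 were lower, HDAC6, SIRT7, EHMT1, EZH2 and KDM4B. These are 9.52% and 11.9% of the 42, beside 10% of all genes higher and 14.9% lower. In the drinkers HDAC9, SIRT1, KDM3A and KDM5A were higher and HDAC6, SIRT3, SIRT7, SETD1A, EHMT1, EHMT2 and KDM4B were lower, 9.52% and 16.7% of the enzymes against 12.5% and 17.5% of all genes. In the controls none was called in this scaling, against 0.418% of all genes higher and 0.196% lower. There 7 of the 42 had an unadjusted p below 0.05, beside 1884 of the 15324 genes tested. After scaling the median log2 change of all genes over all pairs was -0.02, so calls in both directions are not particular to the enzymes. Neither the share called higher nor the share called lower stood above that of all genes.

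**Figure D3:**
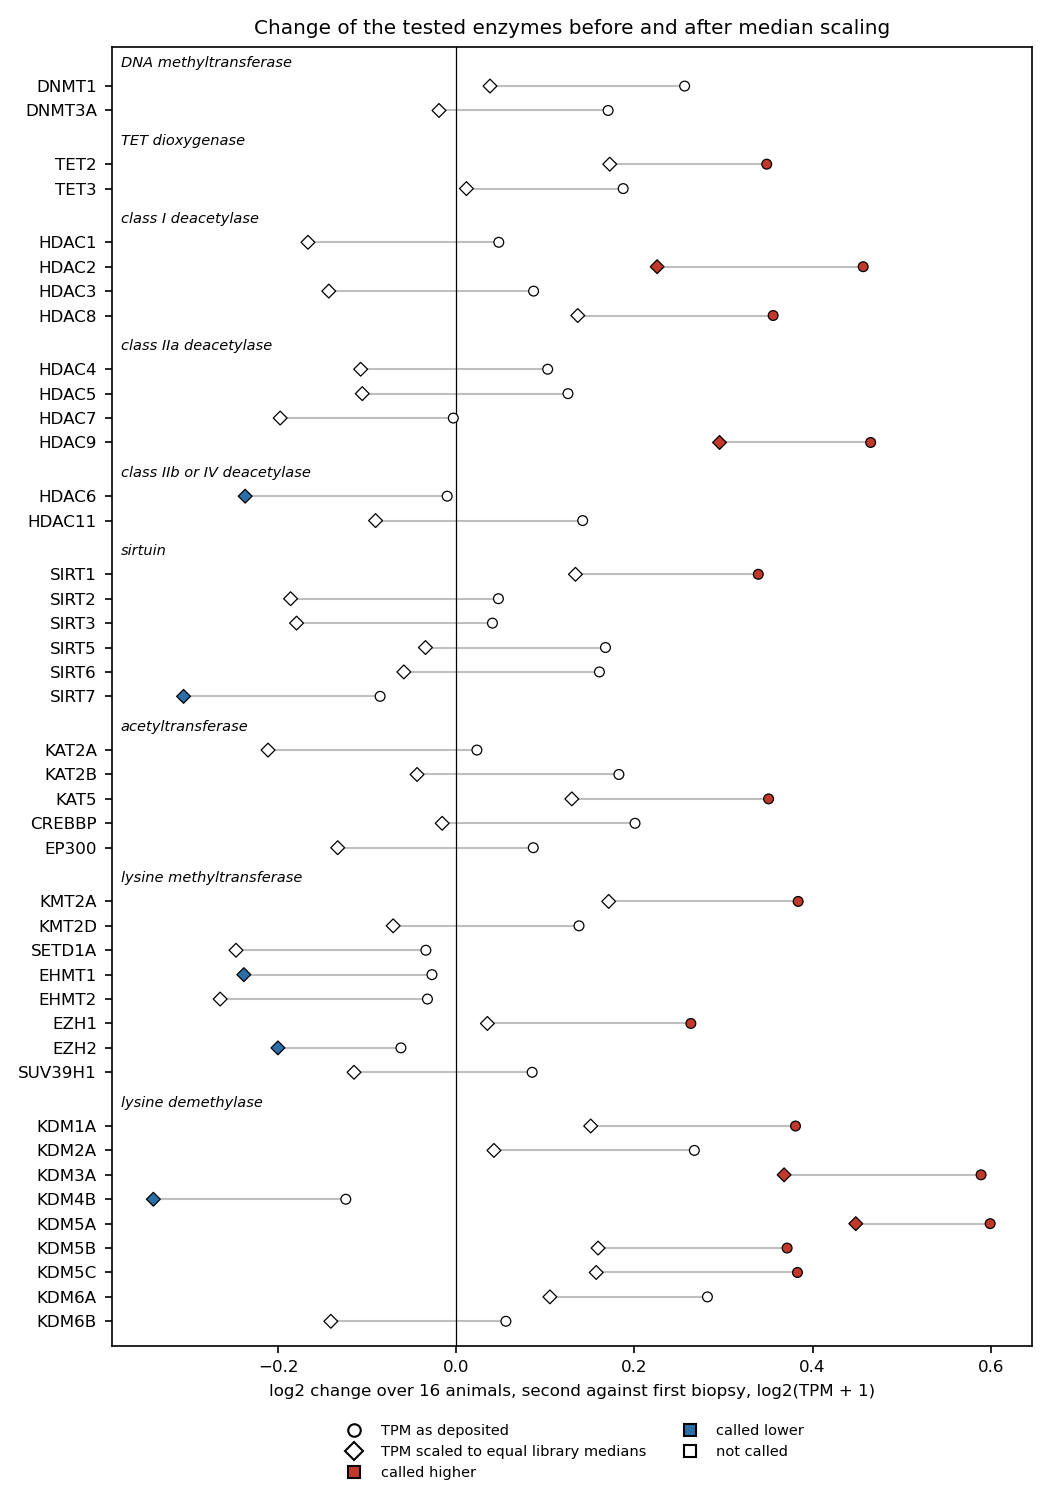
Log2 change of the 42 tested enzymes over 16 animals, with TPM as deposited (circles) and with library medians set equal (diamonds), joined by a line for each gene. Red marks genes called higher and blue genes called lower. All symbols shift to the left, 13 red circles become 4 red diamonds, and 5 blue diamonds appear that were open circles.

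The shift was also seen animal by animal. The median change of the 42 enzymes ran from -0.175 in control X10204 to 0.78 in drinker X10229, and it had the same sign as the median of all genes in 14 of 16 animals. In X10229 all 42 enzymes were higher in the second biopsy, and in drinker X10236 11 were.

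**Figure D4:**
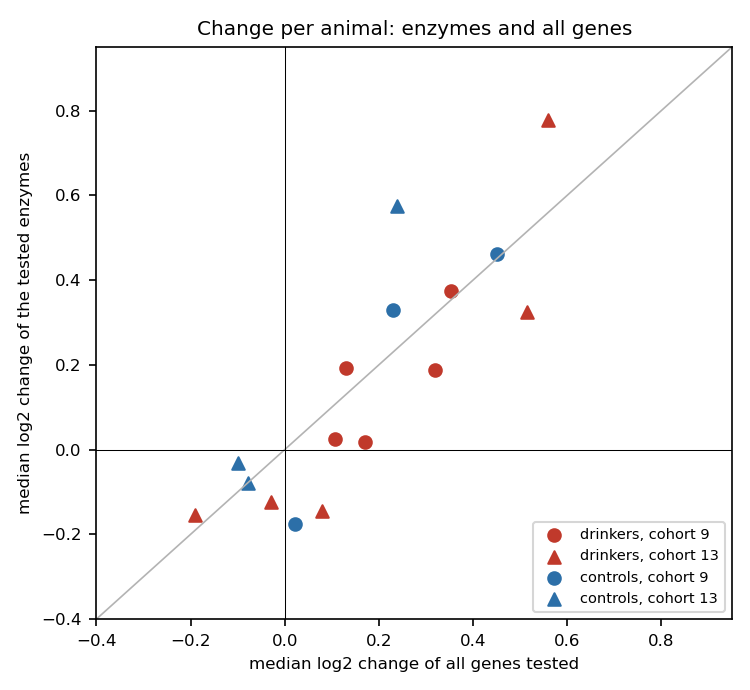
Median log2 change of the 42 tested enzymes against the median of all genes tested, 1 point for each of 16 animals, with the line of equality. Colour gives drinkers and controls, and shape the cohort. The points lie along the line, from drinker X10230 with a median of -0.19 over all genes to drinker X10229 with 0.56.

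Among the 42 enzymes tested on log2(TPM + 1), the largest rises were those of the lysine demethylases KDM5A and KDM3A. TET1 was too low for that test and rose by 0.80 over all pairs in limma-voom on recovered reads, a different scale. On 1 scale, the authors' deposited log2 fold changes in drinkers were 0.83 for TET1, 0.74 for KDM5A and 0.46 for KDM3A. KDM3A, which removes silencing methyl groups from histone H3, ranged in the drinkers' first biopsies from 8.10 to 18.6 TPM with a median of 15.0 TPM. In their second biopsies it ranged from 14.5 to 33.7 TPM with a median of 22.5 TPM. Control values ran from 11.4 to 17.3 TPM (median 14.3) and then from 16.4 to 27.5 TPM (median 18.8). It was higher in the second biopsy of all 16 animals, while the ranges of first and second biopsies overlapped in both kinds of animal. The change was 0.59 ± 0.0948 (log2, SE) over all pairs, adjusted p = 0.000402, with 0.67 ± 0.119 in drinkers (adjusted p = 0.00183) and 0.46 ± 0.154 in controls (adjusted p = 0.238). Relative to the median gene it was 0.37 ± 0.0605, adjusted p = 0.000572, and 15 of 16 animals were higher.

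KDM3A was the sole enzyme still called when the mean levels of neuronal, oligodendrocyte and astrocyte markers entered the fit, with 0.34 ± 0.0806 over all pairs and an adjusted p of 0.0386. In that fit 2.49% of all genes were called. The other enzymes that rose over all pairs were not called there. The call of KDM3A was kept without each of the 16 animals in turn, with TPM as deposited and after scaling, and the change as deposited ran from 0.54 to 0.62.

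KDM5A removes active methyl marks of promoters. It ranged in the drinkers from 0.387 to 2.78 TPM with a median of 1.67 TPM and then from 0.713 to 6.31 TPM with a median of 2.61 TPM. The controls' first biopsies spanned 0.733 to 3.05 TPM (median 1.61) and their second ones 1.31 to 6.91 TPM (median 2.37). Second biopsies reached above all first biopsies in 5 drinkers and 3 controls, and the groups overlapped. The change was 0.60 ± 0.150, adjusted p = 0.00678, higher in 12 of 16 animals, and 0.45 ± 0.120 after scaling, adjusted p = 0.0127. With marker levels as covariates it was 0.21 with an adjusted p of 0.522. In the drinkers the call as deposited was lost without X10201 (0.54 ± 0.195, adjusted p = 0.0515), and the scaled call when any 1 of 6 animals was left out (adjusted p up to 0.0912).

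In cohort 9 KDM5A in the 8 first biopsies lay between 1.35 and 3.05 TPM and in the 8 second biopsies between 3.09 and 6.91 TPM, without overlap. KDM3A did not overlap there either, at 12.5 to 18.6 TPM and then 19.3 to 33.7 TPM. The share of all genes without overlap was not counted, and 35.2% of all genes were called in this cohort. The separation is therefore not read as particular to KDM5A or KDM3A. In cohort 13 KDM5A lay between 0.387 and 2.78 TPM and between 0.713 and 2.12 TPM. The change of KDM5A was 1.01 ± 0.173 in cohort 9 (adjusted p = 0.00148) and 0.19 ± 0.173 in cohort 13 (adjusted p = 0.612). The difference of -0.82 had an adjusted p of 0.501, so a difference between cohorts was not shown.

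Of the other demethylases, KDM1A, the flavin-dependent enzyme of the CoREST complex, rose by 0.38 ± 0.0920, KDM5B by 0.37 ± 0.0978 and KDM5C, a gene of intellectual disability, by 0.38 ± 0.120. None of these 3 was called after scaling, with changes of 0.15, 0.16 and 0.16. KDM2A, KDM6A and KDM6B were not called over all pairs, at 0.27, 0.28 and 0.06, and KDM6A, which removes the Polycomb mark, rose in the drinkers by 0.41 ± 0.141, adjusted p = 0.0287. That call was lost without X10201, X10203, X10227 or X10229 (adjusted p up to 0.0798) and after scaling (0.20, adjusted p = 0.0868). KDM4B went the other way. Its change was -0.12 ± 0.0873 as deposited, adjusted p = 0.262, and -0.34 ± 0.0730 after scaling, adjusted p = 0.00381, lower relative to the median gene in 15 of 16 animals. KDM4B was singled out after its values were seen.

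**Figure D5:**
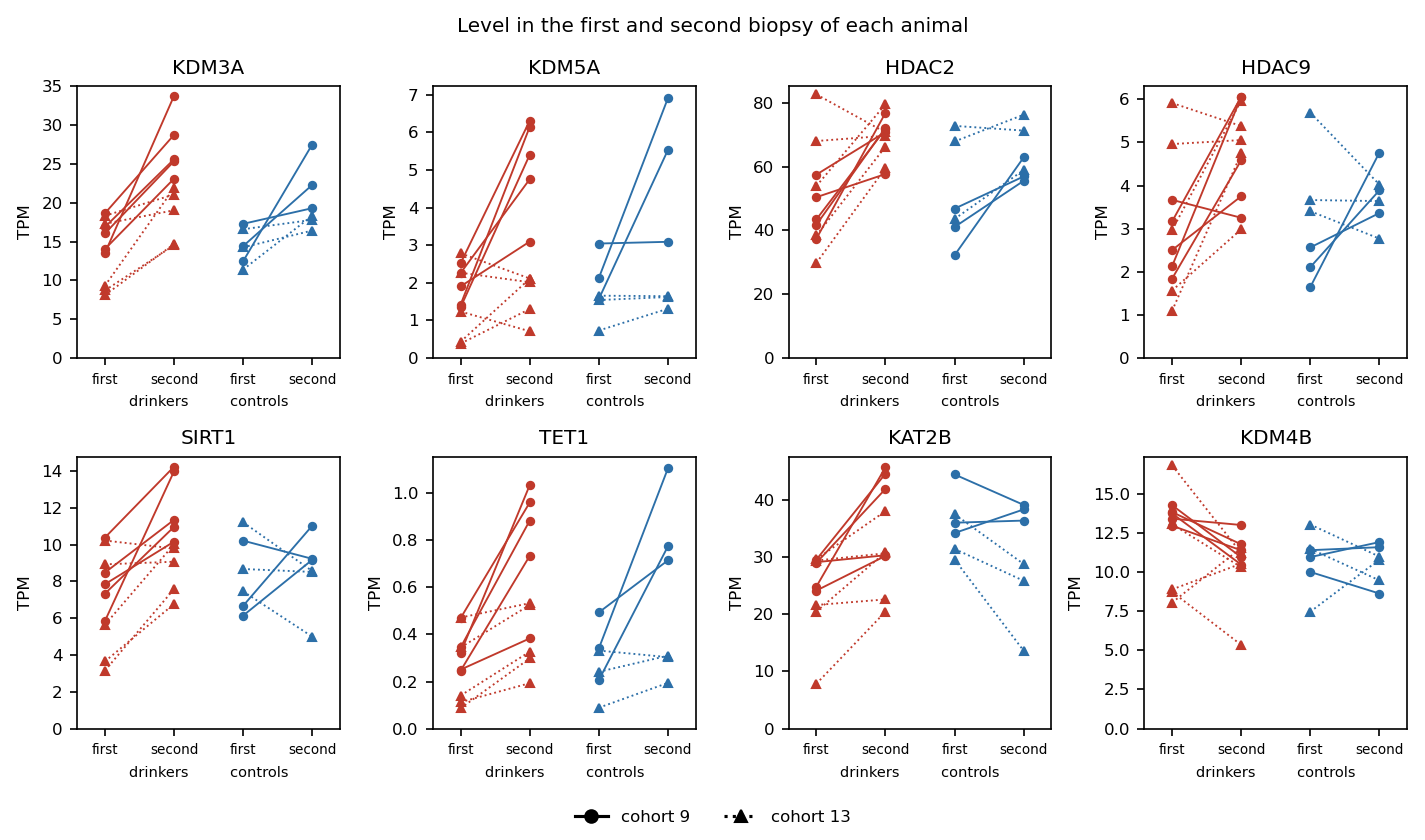
TPM of 8 enzymes in the first and second biopsy of each animal, joined by a line, with drinkers in red and controls in blue, cohort 9 as circles and solid lines and cohort 13 as triangles and dotted lines. KDM3A rises in every animal, KDM5A in 8 of 8 animals of cohort 9 and 4 of 8 of cohort 13, KAT2B in all 10 drinkers and in 2 of 6 controls, and KDM4B falls in most drinkers.

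Among the zinc-dependent deacetylases, class I and class IIa each held a member called both ways. HDAC2, a class I enzyme that restrains synaptic plasticity genes in mice, ranged in the drinkers from 29.8 to 82.6 TPM (median 47.0) and then from 57.7 to 79.5 TPM (median 70.8). In the controls it ranged from 32.2 to 72.8 TPM (median 45.2) and then from 55.5 to 76.3 TPM (median 60.9). The first biopsies of 8 drinkers and 4 controls lay below every second biopsy of their group, while the highest drinker value was a first biopsy. HDAC2 changed by 0.46 ± 0.0954, adjusted p = 0.00255, in 14 of 16 animals, and by 0.23 ± 0.0736 after scaling, adjusted p = 0.032. The scaled call was lost when any 1 of 6 animals was left out, with adjusted p up to 0.0662.

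HDAC9, a class IIa enzyme that binds MEF2 factors, ranged in the drinkers from 1.10 to 5.91 TPM (median 2.73) and then from 2.99 to 6.06 TPM (median 4.90). Control values ran from 1.64 to 5.69 TPM (median 2.98) and then from 2.77 to 4.76 TPM (median 3.76). The highest values of both biopsies lay close together, while the lowest values were found in first biopsies. Its change was 0.47 ± 0.132, adjusted p = 0.0126, in 11 of 16 animals, and 0.30 ± 0.0992 after scaling, adjusted p = 0.0358, a call lost when any 1 of 9 animals was left out (adjusted p up to 0.0733). In the drinkers it was 0.60 ± 0.163, adjusted p = 0.0106.

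The other deacetylases changed less. HDAC8 rose by 0.36 ± 0.0827 and was not called after scaling, at 0.14. HDAC1, HDAC3, HDAC4, HDAC5 and HDAC7 ran from -0.00347 to 0.13 and none was called. Of class IIb and IV, the tubulin deacetylase HDAC6 was at -0.01 as deposited and at -0.24 ± 0.0816 after scaling, adjusted p = 0.0395, a scaled call lost when any 1 of 7 animals was left out. HDAC11 had the smaller p of these classes as deposited. In the drinkers it ranged from 40.5 to 90.1 TPM (median 70.7) and then from 55.3 to 88.1 TPM (median 71.3). The controls' first biopsies spanned 51.1 to 89.1 TPM (median 65.7) and their second ones 70.4 to 79.2 TPM (median 73.7). These ranges overlapped almost wholly, and the change of 0.14 ± 0.0935 had an adjusted p of 0.232 and turned to -0.09 after scaling.

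SIRT1, a nuclear sirtuin that deacetylates histones and transcription factors, was the sirtuin with the smallest p. It ranged in the drinkers from 3.16 to 10.4 TPM (median 7.59) and then from 6.77 to 14.2 TPM (median 10.1). In the controls it ranged from 6.14 to 11.2 TPM (median 8.07) and then from 5.001 to 11.03 TPM (median 8.87). It was higher in 9 of 10 drinkers and in 2 of 6 controls. Over all pairs SIRT1 was called higher as deposited and not called after scaling. The deposited call was lost without X10197, X10201, X10203, X10227 or X10229 (adjusted p up to 0.0613). The change was 0.53 ± 0.132 in drinkers, adjusted p = 0.0078, and 0.28 ± 0.0904 after scaling, adjusted p = 0.0283. In controls it was 0.03 ± 0.170 and turned to -0.11 after scaling. The scaled call in drinkers was lost without X10201, X10226 or X10227 (adjusted p up to 0.0825).

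SIRT2, SIRT3, SIRT5, SIRT6 and SIRT7 were not called over all pairs as deposited, with changes from -0.09 to 0.17. After scaling SIRT7, a nucleolar sirtuin, was lower by -0.31 ± 0.0871, adjusted p = 0.0169, and the mitochondrial SIRT3 was lower in the drinkers by -0.26 ± 0.0961, adjusted p = 0.047. The call of SIRT7 was kept without each animal in turn, that of SIRT3 in 6 of 16 leave-outs. Thus SIRT1 and SIRT7 lay on opposite sides of the median gene in the drinkers, at 0.28 and -0.38, the call of SIRT7 in drinkers being lost without X10201 (adjusted p = 0.0558).

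The acetyltransferase with the largest gap between drinkers and controls was KAT2B (PCAF), a paralog of KAT2A. In the drinkers it ranged from 7.84 to 29.6 TPM (median 26.9) and then from 20.4 to 45.7 TPM (median 30.7). Control values ran from 29.6 to 44.4 TPM (median 35.1) and then from 13.6 to 39.1 TPM (median 32.6). All 10 drinkers were higher in the second biopsy and 4 of 6 controls were lower. The change was 0.46 ± 0.127 in drinkers, adjusted p = 0.011, and -0.29 ± 0.163 in controls, adjusted p = 0.460. The difference of 0.75 ± 0.207 had the smallest p of all enzymes, 0.00168 unadjusted and 0.634 adjusted over all genes, so it is not called. After scaling the changes were 0.19 in drinkers, adjusted p = 0.173, and -0.43 in controls, adjusted p = 0.196, with 6 of 10 drinkers higher and 6 of 6 controls lower.

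KAT2B in drinkers and controls differed less in second than in first biopsies. In first biopsies drinkers were at 24.6 ± 6.83 TPM (SD, n = 10) and controls at 35.5 ± 5.25 TPM (n = 6), a log2 difference of -0.58 ± 0.214 with an unadjusted p of 0.0141 and an adjusted p of 1. In second biopsies they were at 33.5 ± 8.75 and 30.3 ± 9.79 TPM, a difference of 0.17 ± 0.164. Without drinker X10227, whose first biopsy had the lowest value, the change in drinkers was 0.37 ± 0.119, adjusted p = 0.0336. Without control X10232 the change in controls was -0.13 ± 0.159.

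KAT5 (TIP60), of the NuA4 complex, ranged in the drinkers from 7.67 to 31.8 TPM (median 15.8) and then from 17.96 to 29.9 TPM (median 21.2). The controls' first biopsies spanned 13.0 to 23.9 TPM (median 16.03) and their second ones 17.3 to 25.0 TPM (median 21.0). The highest drinker value was again a first biopsy, while 7 of the drinkers' first biopsies lay below all their second ones. The change was 0.35 ± 0.107, adjusted p = 0.0176, in 14 of 16 animals, and 0.13 ± 0.0729 after scaling, adjusted p = 0.189. KAT2A and the paralogous coactivators CREBBP and EP300 were at 0.02, 0.20 and 0.09 and not called.

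Of the 8 lysine methyltransferases, 2 rose as deposited. KMT2A (MLL1), which marks active promoters, ranged in the drinkers from 2.90 to 13.9 TPM (median 10.7) and then from 4.41 to 24.1 TPM (median 11.2). In the controls it ranged from 4.44 to 12.6 TPM (median 9.32) and then from 7.53 to 21.6 TPM (median 10.49). Some second biopsies stood high while the medians lay close. The change was 0.38 ± 0.146, adjusted p = 0.0443, in 11 of 16 animals, and the call was lost when any 1 of 10 animals was left out and after scaling (0.17, adjusted p = 0.263). EZH1, the other one, rose by 0.26 (log2), adjusted p = 0.0452, with a call likewise lost when any 1 of 10 animals was left out and a scaled change of 0.03.

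The remaining methyltransferases, KMT2D, SETD1A, EHMT1, EHMT2, EZH2 and SUV39H1, ran from -0.06 to 0.14 as deposited. EHMT1 and EHMT2 form a heterodimer that silences genes. After scaling EHMT1 was lower over all pairs by -0.24 ± 0.0703, adjusted p = 0.0199, a call kept without each animal in turn. EHMT2 was lower in the drinkers by -0.40 ± 0.125, adjusted p = 0.0242, beside EHMT1 at -0.31 ± 0.0863, adjusted p = 0.0157. SETD1A, the catalytic subunit of a COMPASS complex, was lower in the drinkers by -0.40 ± 0.123, adjusted p = 0.0229. EZH2 was lower over all pairs by -0.20 ± 0.0688, adjusted p = 0.0392, a call lost when any 1 of 9 animals was left out. The drinkers' calls of EHMT2 and SETD1A were lost without X10201, X10226 or X10227. In the controls the scaled changes of EHMT1, EHMT2 and SETD1A were -0.12, -0.03 and 0.01, and the differences from drinkers all had an adjusted p of at least 0.428.

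No DNA methyltransferase passed the test. DNMT1 ranged in the drinkers from 6.66 to 20.7 TPM (median 12.4) and then from 7.85 to 21.9 TPM (median 16.6). Control values ran from 8.91 to 16.7 TPM (median 11.4) and then from 9.92 to 18.7 TPM (median 15.6). It was higher in 9 of 16 animals and the ranges overlapped throughout. The change was 0.26 ± 0.126, adjusted p = 0.112, and 0.04 after scaling, and DNMT3A was at 0.17 and -0.02. DNMT3B, under the level required for testing, had 7 to 74 recovered reads per library and a limma-voom change of -0.12 ± 0.122, adjusted p = 0.476.

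TET2 was the called TET dioxygenase of the 2 tested. It ranged in the drinkers from 1.07 to 4.49 TPM (median 3.36) and then from 2.62 to 6.94 TPM (median 3.84). The controls' first biopsies spanned 2.32 to 4.88 TPM (median 3.10) and their second ones 1.85 to 6.57 TPM (median 3.35). It was higher in 9 of 10 drinkers and 2 of 6 controls, and the groups overlapped. Its change was 0.35 ± 0.109, adjusted p = 0.0194, with 0.46 ± 0.135 in drinkers (adjusted p = 0.015) and 0.17 ± 0.174 in controls, and the difference was not called (adjusted p = 0.662). After scaling it was 0.17, adjusted p = 0.105. TET3 was at 0.19 and not called.

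TET1 had the lowest level of all 44 enzymes and was tested only without the filter of 1 TPM. In limma on log2(TPM + 1) without it the change was 0.28 ± 0.0527 over all pairs, adjusted p = 0.00302. Limma-voom took genes with a mean of at least 10 recovered reads. TET1 ranged in the drinkers from 0.0866 to 0.472 TPM (median 0.287) and then from 0.193 to 1.03 TPM (median 0.529). In the controls it ranged from 0.0887 to 0.494 TPM (median 0.286) and then from 0.194 to 1.11 TPM (median 0.512). It was higher in all 10 drinkers and 5 of 6 controls. Since log2(TPM + 1) understates the change of so low a gene, limma-voom on its 15 to 98 recovered reads per library is given here, with 0.80 ± 0.123 over all pairs (adjusted p = 0.0003), 0.82 ± 0.161 in drinkers (adjusted p = 0.00345) and 0.76 ± 0.201 in controls (adjusted p = 0.0824). The difference between drinkers and controls was 0.06 ± 0.258. In cohort 9 the limma-voom change was 1.04 ± 0.160 (adjusted p = 0.0004). In cohort 13 it was 0.55 ± 0.160 and not called (adjusted p = 0.0952). The difference between cohorts was not called (adjusted p = 0.428). TET1 was under the level required for the leave-out and covariate fits.

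The difference of the change between drinkers and controls was tested directly. Limma called it for 0 of 42 enzymes and for 0% of all genes, as deposited and after scaling, and limma-voom called none. Unadjusted p was below 0.05 for SIRT1 and KAT2B as deposited, and also for CREBBP and KDM4B after scaling. Of the 15324 genes tested, it was below 0.05 for 1036 as deposited and 1656 after scaling. For KDM3A the difference was 0.21 ± 0.195 and for KDM5A 0.12 ± 0.315 (log2, SE). A p that misses the threshold does not show that the changes were equal. Between drinkers and controls, limma called 0 enzymes in first biopsies and 0 in second biopsies (0% of all genes in each). In first biopsies 1 enzyme had an unadjusted p below 0.05, beside 218 of the 15324 genes tested. In second biopsies 0 enzymes did, beside 1084 genes. The changes in drinkers are thus not shown to differ from those in controls.

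Within cohort 9, 11 of 42 enzymes were called, all higher (26.2%, against 35.2% of all genes). Within cohort 13 none was called (1.07% of all genes). In cohort 13, 9 of the 42 had an unadjusted p below 0.05, beside 2142 of the 15324 genes tested. After scaling the counts called were 9 in cohort 9 (21.4% against 28.0%) and 0 in cohort 13 (1.08% of all genes). Limma-voom called KDM3A in cohort 13, but the share of all genes called in that fit is not given here. This call is therefore not read as particular to KDM3A. The difference between cohorts was called for 0 enzymes in either scaling, against 0.0131% and 0.0326% of all genes. An unadjusted p below 0.05 was found for 1 and 4 enzymes, beside 1148 and 1645 of the 15324 genes. KDM3A changed by 0.70 ± 0.133 in cohort 9 and by 0.48 ± 0.133 in cohort 13, adjusted p = 0.0885. The cohorts also differ in depth, and the RNA code in the sample titles changes between the biopsies of X10226, X10227 and X10232, all of cohort 13. Without these 3 animals, after scaling, the cohort difference was called for 3 of 42 enzymes and for 9.88% of all genes, so the enzymes did not stand above the background. The 3 were EHMT1 (0.33 ± 0.0906), EHMT2 (0.56 ± 0.154) and HDAC5 (0.65 ± 0.163), each with a change more positive in cohort 13 than in cohort 9. These 3 genes were named after their values were seen.

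In the authors' deposited table, 14 of the 44 enzymes had an FDR below 0.05 in drinkers, 31.8% against 29.6% of the genes with an FDR there. By the authors' deposited table, higher in drinkers were 7 of them, TET1, TET2, HDAC2, HDAC9, SIRT1, KDM3A and KDM5A, and 7 lower, HDAC6, SIRT3, SIRT7, SETD1A, EHMT1, EHMT2 and KDM4B. The authors' deposited table gives KDM5A a log2 fold change of 0.74, and it is the sole enzyme in their list of 567 genes raised in drinkers. None of the 44 is in the authors' deposited table of 675 genes lowered in drinkers or in their lists of 39 and 38 genes changed in controls. In controls 1 enzyme, TET1, had an FDR below 0.05 in the authors' deposited table (2.27% against 1.78% of genes), with a log2 fold change of 0.76. The 7 enzymes lower in drinkers in the authors' deposited table are also the 7 called lower in drinkers here after scaling. Both results draw on the same libraries, so the match is not independent support.

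A wider set of 128 genes of the same pathways held 118 that were tested, 8 symbols having no match in the table. Of these 48 rose over all pairs (40.7%, against 32.9% of all genes) and 0 fell, and after scaling 13 were higher and 14 lower (11.02% and 11.9%, against 10% and 14.9% of all genes). In the drinkers 43 rose (36.4%, against 32.7% of all genes) and in the controls 1 (0.847%, against 0.248%). Polycomb and COMPASS partners had 7 of 13 higher as deposited, with a median change of 0.32, and 2 higher and 0 lower after scaling. Donor supply genes had 7 of 15 higher as deposited, with a median of 0.31, and 1 higher and 3 lower after scaling. Bromodomain readers had 3 of 10 higher as deposited, with a median of 0.11, and none in either direction after scaling. The rest, readers of DNA methylation, further acetyltransferases, deacetylases, methyltransferases and demethylases, arginine methyltransferases and corepressor subunits, had as deposited medians from 0.17 to 0.29.

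EED, the Polycomb subunit that binds the mark set by EZH1 and EZH2, rose by 0.76 ± 0.109, adjusted p = 0.000164, higher in 15 of 16 animals, and stayed higher after scaling at 0.54. JMJD6, a Jumonji-domain hydroxylase, rose by 0.73 ± 0.0921, higher in 16 of 16 animals, and was the 1 gene of these lists called in controls (0.76, adjusted p = 0.0361). UHRF2, a reader of modified cytosine, rose by 0.61 ± 0.110 and GADD45A, which takes part in active demethylation, by 0.43 ± 0.0806. RBBP5, a core COMPASS subunit, rose by 0.57 ± 0.121, SAP30 of the SIN3 corepressor by 0.46 ± 0.0897 and the mitochondrial sirtuin SIRT4 by 0.52 ± 0.0834. The methyltransferases PRDM2, SETDB2 and SETD7 rose by 0.49, 0.47 and 0.41, the demethylase KDM7A by 0.48 and the arginine methyltransferase PRMT9 by 0.61. MAT2A, which makes the methyl donor S-adenosylmethionine, rose by 0.44 ± 0.0963 from a mean level of 131 TPM. These 13 were named because they were called higher both as deposited and after scaling, so that match was set by the choice. None of the 118 was called lower as deposited, so the rule could name only genes that rose. After scaling 14 of the 118 were called lower, beside 13 called higher. With marker levels as covariates JMJD6, EED, SIRT4 and GADD45A were still called, with adjusted p of 0.00863, 0.0288, 0.0271 and 0.0489.

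Cell type markers moved between the biopsies as well. Neuronal markers changed by 0.43 ± 0.495 (mean of log2 changes, SD over 16 animals), higher in 12 animals, with 7 of 9 genes called higher as deposited and 4 after scaling. Oligodendrocyte markers changed by 0.48 ± 1.11, with 2 of 7 called higher as deposited and 0 after scaling, and microglia markers by -0.34 ± 0.317, lower in 14 animals. Blood markers changed by -1.40 ± 2.38, with 3 of 4 called lower in either scaling. After scaling 3 of 5 endothelium, 2 of 2 leukocyte, 2 of 5 oligodendrocyte precursor and 2 of 7 astrocyte markers were lower. None of these 4 sets had a marker called higher after scaling. Over all pairs 1 of 42 enzymes was called with the neuronal, oligodendrocyte and astrocyte markers as covariates, and 1 with the mitochondrial percent as a covariate, KDM3A in each case. The part of blood, leukocytes, microglia, endothelium and oligodendrocyte precursors in the enzymes' changes was not tested.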

How the data were processed

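Libraries were poly-A selected, unstranded and single-end, per the labels, so reads of a gene and of an antisense gene overlapping it cannot be told apart. STAR 2.5.2b, HTSeq 0.6.1p1 and DESeq2 are named per the submitters' processing notes. The genome build was not given in these notes, the labels or the table. The deposited per-library values are TPM, computed by the authors. Their table also holds the authors' deposited log2 fold changes, p-values and FDR values for drinkers and for controls.

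Groups come from the sample titles, and drinkers and controls from the table header. The design allowed for counts. As the values are TPM, its stated fallback was used, limma 3.58.1 (R 4.3.3) on log2(TPM + 1) for the 15324 genes with a mean of at least 1 TPM, with the animal as a block and Benjamini-Hochberg adjusted p below 0.05. Fold changes on this scale understate those of low genes. The pairing rests on the animal numbers in the titles. Deviations from the group means correlated between the first and second biopsy of an animal at -0.06 to 0.70 (median 0.52), above 0.1 in 14 of 16 animals. Between different animals the median was -0.05. In 9 of 16 animals the first biopsy correlated best with the animal's own second biopsy. Cohort means were not taken out, so these correlations do not establish the pairing. Median scaling set the median TPM of each library equal. Whole reads were recovered from the steps of TPM values for 29406 of 29437 genes (within 1e-06 of a whole number), 44 of the 44 enzymes among them, and served limma-voom as an alternative.

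Members and lists were chosen with earlier results of these data known. Values by group are given for members called both as deposited and after scaling, for the smallest p of each class and for the smallest p of the difference between drinkers and controls, and TET1 was added after its values were seen. Up to 4 genes of each further list called both ways are named. Other alternatives were filters, pseudocounts, covariates, single RNA codes and leaving out each animal. The methods were tested on simulated data. Figures were made with Python 3.11.15 and matplotlib 3.10.9.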

Additional observations from a re-analysis of the deposited data

Results flagged for a closer look

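Among the 11 enzymes described by group, 66 sets of values (levels by group and biopsy, and changes by kind of animal) were searched for a value far from the others, and 2 were found. Chance alone gives about 1 in 20. KAT2B was at 7.84 TPM in the first biopsy of drinker X10227, while the other drinkers' first biopsies lay between 20.5 and 29.6 TPM. That library had the highest mitochondrial share, 56.4%, and the RNA codes of this animal's biopsies differ. TET2 was at 4.88 TPM in the first biopsy of control X10204, while the other controls' first biopsies lay between 2.32 and 3.26 TPM. No enzyme moved one way in every drinker and the other way in every control, and neither the difference between drinkers and controls nor that between cohorts was called for any tested enzyme with TPM as deposited.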

How the results depend on the processing

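With TPM as deposited, 13 enzymes were called over all pairs, 12 in drinkers, 11 in cohort 9 and 0 in the other comparisons. With composition covariates these were 1, 1 and 0, with the mitochondrial percent as a covariate 1, 2 and 4, and with pairs of a single RNA code 3 in drinkers. In the composition fit over all pairs 2.49% of all genes were called. For the other alternatives and the leave-outs the share of all genes is not given here. Their counts are therefore not read as particular to the enzymes. Without the replicate block they were 10, 9 and 7, so the block moved the count in cohort 9 by over 1.5 times. A mean of at least 5 TPM left 7 in cohort 9. Limma-voom called 1 in cohort 13 under both filters. After median scaling 9 were called over all pairs and 11 in drinkers, and with composition covariates 1 and 2, and with a single RNA code 4 in drinkers. Leaving out each animal gave 10 to 15 over all pairs, 6 to 12 in drinkers (6 without X10201 and 7 without X10203, X10227 or X10229), 7 to 12 in cohort 9 (7 without X10197, X10201 or X10203) and 0 elsewhere. After scaling it gave 5 to 16 over all pairs (5 without X10197, X10200 or X10203, 16 without X10232) and 3 to 15 in drinkers (3 without X10201, 4 without X10227). Median scaling turned the sign of the log2 change for 17 of the 42 tested enzymes over all pairs, 19 in drinkers and 14 in controls, and 1 of these was called after it, SIRT3 in drinkers. Among the 11 enzymes described by group, the changes turned negative under median scaling were DNMT1 in drinkers (-0.049), HDAC11 over all pairs, in drinkers and in controls (-0.0908, -0.14 and -0.00669), SIRT1 in controls (-0.11) and KAT2B over all pairs (-0.0442). Limma-voom gave -0.000617 for DNMT1 in drinkers, -0.0483 and -0.0872 for HDAC11 over all pairs and in drinkers, -0.11 for SIRT1 in controls and -0.0031 for KAT2B over all pairs. Composition covariates gave -0.0689 and -0.20 for DNMT1 over all pairs and in drinkers, -0.0101 and -0.12 for HDAC11, -0.0039 and -0.0902 for KMT2A, and in controls -0.0275 for TET2, -0.11 for HDAC9 and -0.15 for SIRT1. The causes were not tested. Depth limits DNMT3B, TET1 and EZH2 most, with medians of 36, 50.5 and 65 reads per library.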
